A study of Saccharomyces cerevisiae with 16 samples.

Results

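Ty5 insertions at the promoters of 9 yeast genes of pyrimidine synthesis, uptake and salvage were examined in 16 calling-card libraries. The genes were URA2, URA1, URA5, URA4, FUI1, FUR4, FUR1, URH1 and PHM8. They were chosen by pathway with the insertions of the Urc2 library already known, so the Urc2 values below are a description and carry no test. A promoter region was the interval between 2 neighbouring genes at the 5′ end of the named gene. Of the 9 genes 8 had such a region, out of 3518 promoter regions per library (3366 in the Gal4 library), and URA4 is not analysed here.

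In the calling-card assay a transcription factor is fused to the silencing protein Sir4. Sir4 binds Ty5 integrase, so new Ty5 insertions mark DNA near which the fusion sat. The factor libraries held Urc2, Aro80, Cat8, Cha4, Hal9, Leu3, Lys14, Put3, Tea1, Yrm1, Yrr1 or Gal4, each in strain BY4741 lacking SIR4 and the chromosomal copy of the tagged factor. The Gal4 fusion was also profiled in 4 strains without SIR4, GAL4 and a further gene, namely HMO1 (labelled BY4742), LEU3 (BY4743), SEF1 (BY4744) or YRM1 (BY4745), so that strain name and deletion cannot be told apart. These names go up by 1 from library to library, and whether they stand for separate parent strains is not known from the labels. All strains thus lacked SIR4, the tagged factors were expressed from the ADH1 promoter on a plasmid with LEU2 and URA3 markers, and Ty5 was driven by the GAL1/10 promoter on a plasmid with a HIS3 marker. Each group had 1 library of 6932 to 36063 insertions (27453 for Urc2), which leaves every value without a replicate error. All intervals are 95% intervals and cover counting error only.

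Budding yeast makes UMP from glutamine, bicarbonate and aspartate through the URA enzymes, and the end product UTP inhibits the first enzyme. Preformed uracil and uridine enter through permeases and are turned into UMP by salvage enzymes. The zinc cluster protein Ppr1 is the known activator of several URA genes, and it is not analysed here as a tagged factor. Urc2 is another zinc cluster protein, named for uracil catabolism in a related yeast.

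In the Urc2 library, insertions were concentrated at 5 of the 8 promoters: those of URA2, of both permease genes FUI1 and FUR4, of the salvage gene FUR1 and of the nucleotidase gene PHM8. The promoters of URA1, URA5 and URH1 held 12, 2 and 0 Urc2 insertions and were near or below background. Together the 8 regions held 1457 of the 27453 Urc2 insertions, or 5.31% (5.04 to 5.58, exact binomial), against 0.226% of the authors' background insertions. Their median fold over background, the share of the library divided by the share of the background, was 17.6, against 0.766 over the 3416 promoter regions with any background insertion. Calls required 5 or more insertions and a hypergeometric p, as deposited by the authors, of at most 0.001. By this rule 5 of 8 promoters were called for Urc2, against 1.39% of all promoter regions, and since the Urc2 values were known when the genes were chosen nothing is read from that contrast. All 5 were among the 10 promoter regions with the most Urc2 insertions, and they held 1443 (41.0%) of the 3522 insertions in the 49 promoter regions called for Urc2.

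**Figure D1:**
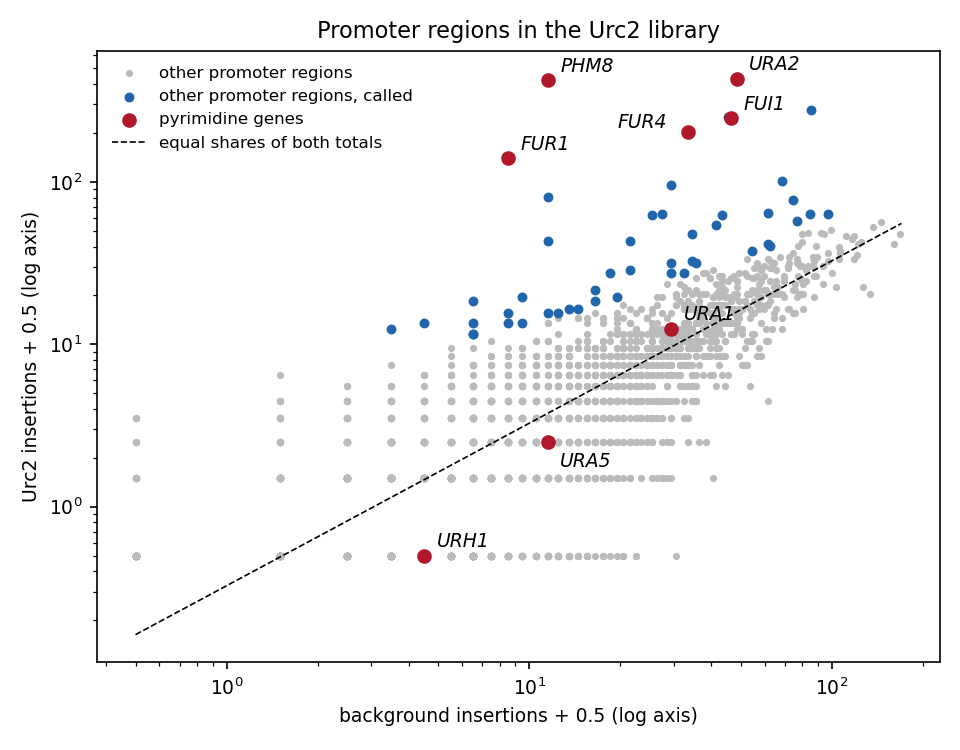
Each point is 1 promoter region, with its background insertions on the x axis and its Urc2 insertions on the y axis (both plus 0.5, log axes), with other called regions in blue and a dashed line for equal shares of both totals. The regions of PHM8, URA2, FUI1, FUR4 and FUR1 (red) lie far above the line, while URA1, URA5 and URH1 lie near or below it.

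The entry enzyme of the pathway is encoded by URA2, which makes a single protein with carbamoyl phosphate synthetase and aspartate transcarbamylase activities. Its promoter (URA2/TRK1, chromosome X, 172367 to 173599) held 432 Urc2 insertions, the most of any promoter region in that library. The other 11 factor libraries held 4 to 18 insertions there, with a median of 9. The Urc2 count was known when the gene was chosen, and how many promoter regions have such a gap was not counted. Per 100000 insertions the count at URA2 was 1574 in Urc2, against 14.1 to 75.2 in the other factor libraries. Relative to the other 11 libraries pooled, the share was 43.7-fold higher in Urc2 (35.3 to 54.4), against 27.6-fold over the background. In 10 of the 11 libraries the promoter was below background, with Cat8 the highest at 1.32-fold. The median over all promoter regions with any background insertion was below background as well, from 0 in Gal4 to 0.885 in Put3.

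The middle steps gave another picture. URA1 encodes dihydroorotate dehydrogenase, which oxidises dihydroorotate to orotate. Its promoter (JEN1/URA1, chromosome XI, 24084 to 25215) held 12 Urc2 insertions (1.27-fold, 0.589 to 2.56), against 1 to 39 in the other 11 factor libraries with a median of 5. The Urc2 count lay inside that range, and Tea1, with 39, was the highest. URA5 encodes the main orotate phosphoribosyltransferase, which makes the first pyrimidine nucleotide. The divergent PML39/URA5 region (chromosome XIII, 56269 to 56773) held 2 Urc2 insertions (0.557-fold, 0.0600 to 2.55), against 0 to 15 in the others with a median of 1. Lys14 was the highest there, with 15.

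Uptake genes stood with URA2. FUI1 encodes the uridine permease. The divergent FUI1/PRE7 region (chromosome II, 140260 to 141247) also holds the promoter of the proteasome gene PRE7, and insertions cannot be assigned to 1 of these 2 genes. It held 246 Urc2 insertions (16.4-fold, 11.9 to 23.0), against 5 to 20 in the other 11 factor libraries with a median of 12. The highest fold among those libraries was 1.37 in Cat8. The Urc2 count was known when the gene was chosen, and how many promoter regions have such a gap was not counted. Against those libraries pooled, Urc2 was 19.9-fold higher (16.1 to 24.7).

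FUR4 encodes the uracil permease and lies next to the galactose gene GAL1. Its promoter (GAL1/FUR4, chromosome II, 280607 to 281443) held 203 Urc2 insertions (18.8-fold, 13.0 to 28.1), against 3 to 138 in the other 11 factor libraries with a median of 7. A single other library, Gal4, had a high count there, 138 insertions or 12.2-fold over background (8.35 to 18.2). The 10 remaining libraries held 20 or fewer. With Gal4 in the pool, the Urc2 share was 10.1-fold higher (8.32 to 12.3) against the other 11 libraries, a smaller value than over the background. Of all FUR4 insertions in the 12 factor libraries, 48.1% came from Urc2.

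Salvage enzymes differed among themselves. FUR1 encodes uracil phosphoribosyltransferase, which converts uracil to UMP. Its promoter (YHR127W/FUR1, chromosome VIII, 361644 to 362115) held 139 Urc2 insertions, against 0 to 21 in the other 11 factor libraries with a median of 2. The fold over background was 53.2 (26.3 to 126) and rests on 8 background insertions, and against the other libraries pooled it was 37.0 (26.0 to 53.8). Aro80 had the next highest count, 21. URH1 encodes the nucleosidase that splits uridine into uracil and ribose. Its promoter (HPT1/URH1, chromosome IV, 1270733 to 1271063) held no Urc2 insertion, against 0 to 3 in the other factor libraries. With 4 background insertions, the exact interval of its fold reached 4.64, and a count of 0 allows up to 2.30-fold (3 insertions) if the background share is taken as exact. A fold within that interval was not detectable at this depth.

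PHM8 encodes a phosphatase that acts on nucleoside monophosphates and is induced by phosphate starvation. The divergent ARB1/PHM8 region (chromosome V, 225199 to 225889), which also holds the promoter of the ribosome biogenesis gene ARB1, held 423 Urc2 insertions, against 0 to 8 in the other 11 factor libraries with a median of 2. That Urc2 count was likewise known when the gene was chosen, and how many promoter regions have such a gap was not counted. Urc2 was 118-fold over background (65.2 to 238), on 11 background insertions, and 178-fold above the other libraries pooled (120 to 275). Both values were the highest of the 8 regions, and 94.2% of the insertions there in the 12 factor libraries came from Urc2. Insertions in this interval cannot be assigned to PHM8 rather than ARB1. Per kilobase, the region of PHM8 held 613 Urc2 insertions, that of URA2 351, FUR1 295, FUI1 249 and FUR4 243.

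**Figure D2:**
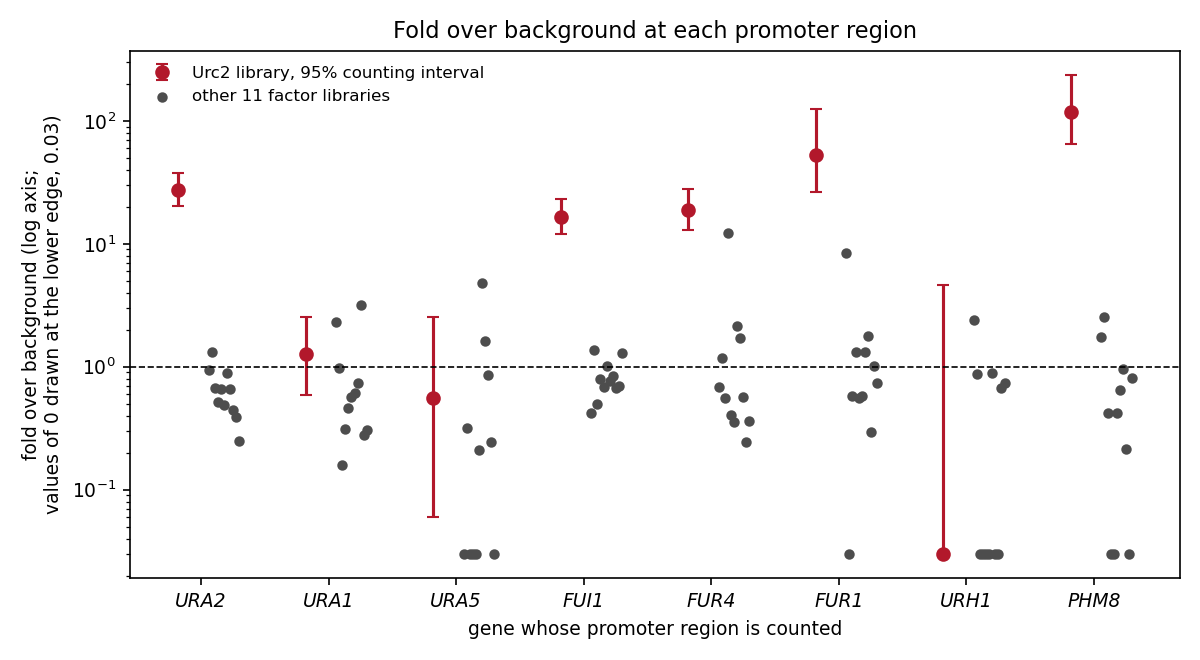
The y axis gives the fold over background (log axis) at each promoter region, in red for Urc2 with its 95% counting interval and in grey for each of the other 11 factor libraries, with values of 0 drawn at the lower edge. At URA2, FUI1, FUR4, FUR1 and PHM8 the Urc2 interval lies above the fold of every other library. How many promoter regions have such a gap was not counted. At FUR4 Gal4 comes close, with 12.2-fold against a lower end of 13.0, and its own interval (8.35 to 18.2, not drawn) overlaps. At URA1, URA5 and URH1 Urc2 lies among the others.

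Insertions at these promoters did not spread evenly over the neighbourhood. The regions at the opposite (3′) ends of the 5 genes held 0 to 3 Urc2 insertions, namely 1 at URA2, 3 at FUI1, 2 each at FUR4 and FUR1 and 0 at PHM8, although the PHM8 interval is only 4 bp long. Background insertions there were 10 at URA2, 19 at FUI1, 3 at FUR4 and 0 at FUR1 and PHM8. A fold over background could thus not be judged at FUR4 (2.04-fold, 0.171 to 17.8), FUR1 and PHM8. Around FUR4, the GAL10/GAL1 promoter, 1586 bp away, held 3 Urc2 insertions (0.613-fold, 0.114 to 2.17) and GAL7/GAL10 held 12 (0.994-fold). Around PHM8 and FUR1, neighbouring regions were called as well. Beside ARB1/PHM8, EDC2/ARB1 held 25 Urc2 insertions (25.5-fold, 7.79 to 132, on 3 background insertions) and ZRG8/EDC2 held 95 (10.0-fold, 6.56 to 15.8), against 0 to 7 and 6 to 23 in the other 11 factor libraries. All 3 neighbouring regions were thus called for Urc2, and neither neighbour was called in another factor library. EDC2/ARB1 lies at the 3′ end of ARB1 and so does not hold the promoter of that gene. Next to FUR1, NDT80/YHR127W held 16 Urc2 insertions (3.77-fold, 1.70 to 8.52) and was called.

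**Figure D3:**
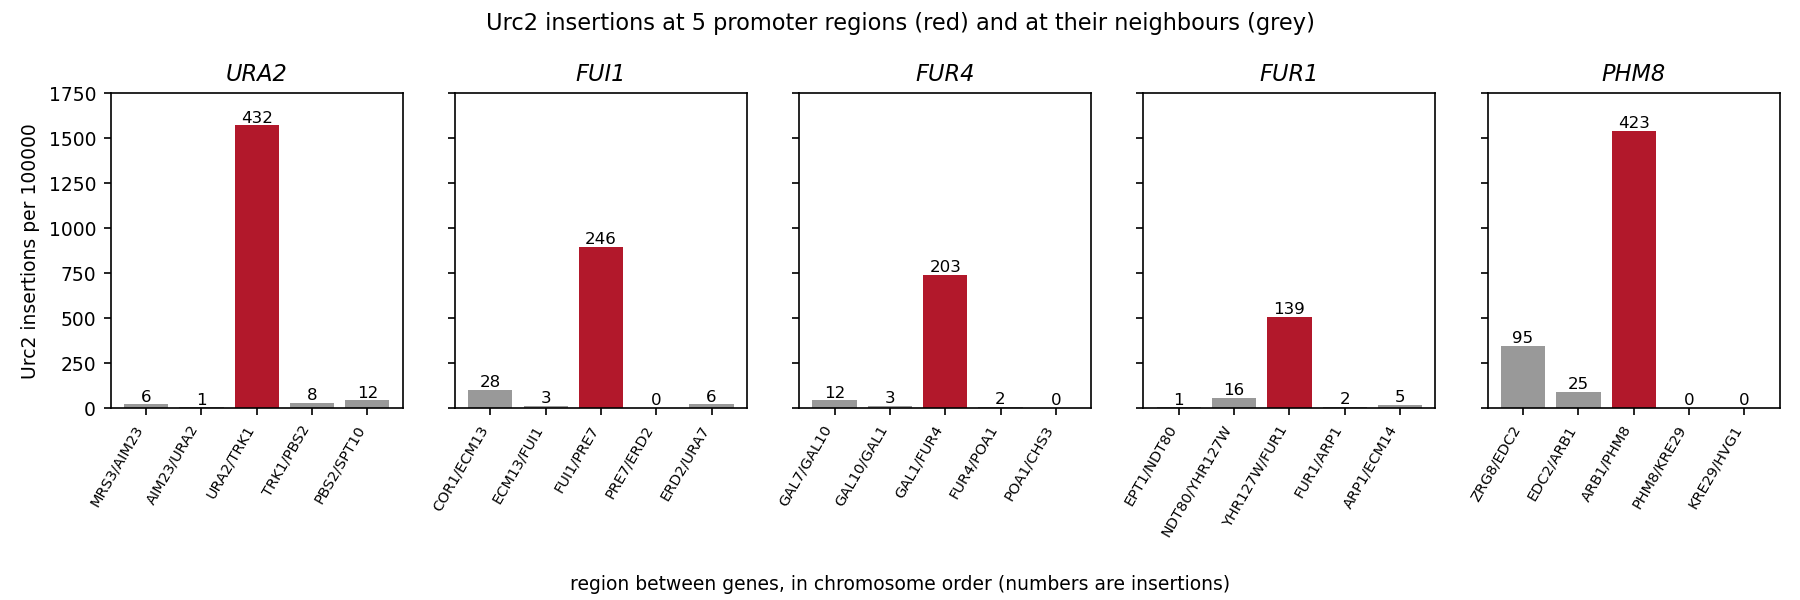
Bars give Urc2 insertions per 100000 at each of 5 promoter regions (red) and at the 2 regions on either side (grey), in chromosome order, with insertions written above. No neighbour was called at URA2, FUI1 and FUR4, while the called neighbours are NDT80/YHR127W with 16 insertions at FUR1 and the regions with 25 and 95 insertions on 1 side of PHM8.

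Outside Urc2, single calls were found in 4 of the other 11 factor libraries. These were URA1 for Tea1 (1 of 8, against 3.07% of all promoter regions), URA5 for Lys14 (1 of 8, 1.36%), FUR1 for Aro80 (1 of 8, 1.79%) and FUR4 for Gal4 (1 of 8, 2.38%). In Leu3, Yrm1, Yrr1, Cat8, Cha4, Put3 and Hal9, 0 of 8 were called, where 2.98%, 3.10%, 2.30%, 1.79%, 0.711%, 0.654% and 2.70% of all promoter regions were. With 8 regions, a single call is the smallest count above 0. The pooled fold of the 8 regions lay between 0.423 (Yrm1) and 1.32 (Aro80) in the 10 libraries other than Urc2 and Gal4, and was 23.5 in Urc2 (20.2 to 27.5) and 2.36 in Gal4 (1.91 to 2.89). In Gal4 it rested on FUR4, with 138 of 167 insertions, and the median fold of the 8 regions there was 0.412.

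The Tea1 count at URA1 was 39 (3.17-fold, 1.91 to 5.31). The SRY1/JEN1 region lies 1850 bp away, on the other side of the coding sequence of the lactate permease gene JEN1. It held 784 Tea1 insertions (14.9-fold, 12.3 to 18.2), which were not assigned to SRY1 or JEN1. Its part in the URA1 count was not tested. Aro80 had 21 insertions at URA1 as well (2.33-fold, 1.26 to 4.22), a count not called at the p of 0.001 but called at 0.01.

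At FUR1 the 21 Aro80 insertions gave 8.43-fold (3.59 to 22.0). In the same library NDT80/YHR127W, 731 bp away, held 30 insertions (7.42-fold, 3.75 to 15.5) and ARP1/ECM14, on the other side, 27 (6.20-fold, 3.14 to 12.8). All 3 regions were called for Aro80, and FUR1 was not the one with the most insertions. Whether the neighbours bear on the FUR1 count was not tested. For Urc2 the order was different, with 139 insertions at FUR1, 16 at NDT80/YHR127W and 5 at ARP1/ECM14.

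At PML39/URA5 the 15 Lys14 insertions gave 4.82-fold (2.07 to 11.6) on 11 background insertions. PML39 encodes a nuclear pore-associated protein, and its promoter shares the interval. The neighbours ZDS2/PML39 and URA5/SEC65 held 3 and 0 Lys14 insertions. Lys14 also had 20 insertions at FUR4 (2.14-fold, 1.17 to 3.85), which was called at 0.01 and not at 0.001.

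**Figure D4:**
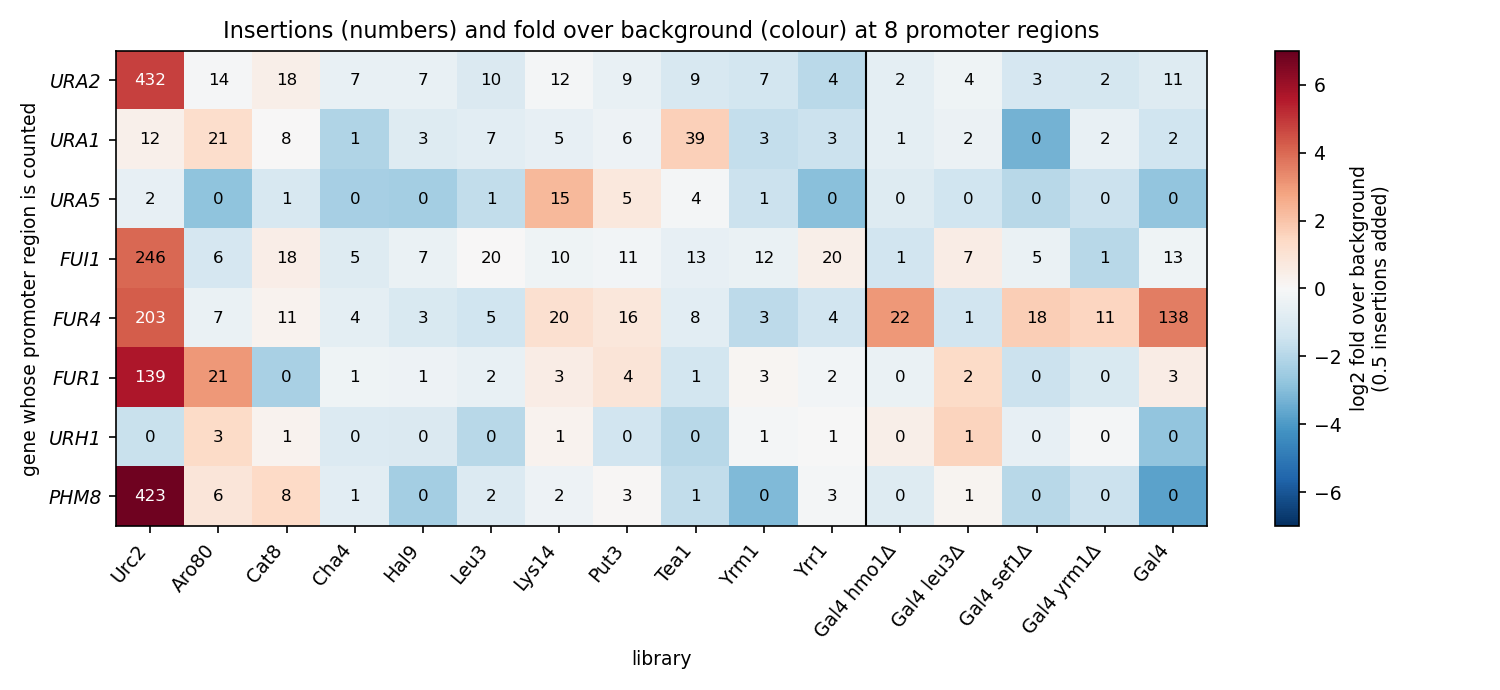
Rows are the 8 genes and columns the 16 libraries, with the insertions written in each cell and the log2 fold over background (0.5 insertions added) as colour. The called cells are 5 in the Urc2 column, FUR4 in Gal4, hmo1Δ and sef1Δ, FUR1 in Aro80, URA5 in Lys14 and URA1 in Tea1, and some cells of few insertions, such as URH1 in leu3Δ with 1, are also red.

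The Gal4 libraries with a further deletion allow the Gal4 insertions at FUR4 to be compared between libraries, with 1 library each. The FUR4 promoter was called in hmo1Δ (1 of 8, against 1.65% of all promoter regions) and sef1Δ (1 of 8, 2.50%), and no promoter of the 8 in leu3Δ (0.199%) or yrm1Δ (1.96%). It held 22 insertions in hmo1Δ, 1 in leu3Δ, 18 in sef1Δ and 11 in yrm1Δ, against 138 in Gal4. As a share of the library this was 317, 10.4, 130 and 107 per 100000, against 410 in Gal4. The 4 deletion libraries were thus all lower than the 1 Gal4 library, with hmo1Δ the nearest to it and leu3Δ the farthest.

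Where a deletion library and Gal4 together held 10 or more insertions in a region, the region was tested by Fisher's exact test (two-sided). The test sets 1 library against another and says nothing of variation within a condition. All 4 comparisons share the Gal4 library. Of the 8 promoters 3 could be tested, URA2, FUI1 and FUR4. At URA2 and FUI1 each deletion library held fewer than 10 insertions, so both passed the minimum through the Gal4 counts. FUR4 reached the minimum without Gal4 in hmo1Δ (22), sef1Δ (18) and yrm1Δ (11), but not in leu3Δ. In leu3Δ FUR4 held 1 insertion and entered the test only through the Gal4 count, so its ratio of 0.0253 (0.000637 to 0.143) is a description. In that library 20.7% of 324 tested regions were lower and 29.6% higher. FUR4 was lower in sef1Δ (ratio 0.316, 0.182 to 0.518; adjusted p = 3.92e-06, Fisher's exact test), against 3.97% of 252 regions lower and 11.1% higher. In yrm1Δ the ratio was 0.261 (0.127 to 0.482; adjusted p = 1.47e-05, Fisher's exact test), against 4.35% of 230 regions lower and 7.39% higher. In hmo1Δ it was 0.774 (0.470 to 1.22; adjusted p = 0.709, Fisher's exact test) and did not pass, where 1.36% of 221 regions were lower and 6.79% higher. The median log2 ratio over all tested regions was 0.02 in hmo1Δ, 0.67 in leu3Δ, 0.26 in sef1Δ and 0.05 in yrm1Δ. With the other 3 deletion libraries pooled in place of Gal4, FUR4 did not pass in sef1Δ (log2 ratio 0.052) or yrm1Δ (-0.29).

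The neighbouring galactose promoter did not move in step with FUR4 in every library. GAL10/GAL1 was at 2971.7 insertions per 100000 in hmo1Δ, 10.4 in leu3Δ, 2031 in sef1Δ and 2811 in yrm1Δ, against 2526 in Gal4. Its ratio to Gal4 was 0.804 in sef1Δ (0.700 to 0.921; adjusted p = 0.0103, Fisher's exact test) and 1.11 in yrm1Δ (0.970 to 1.27; adjusted p = 0.447, Fisher's exact test). The intervals of the FUR4 ratios in sef1Δ and yrm1Δ lie below those of GAL10/GAL1, although the difference between the 2 regions was not tested. In leu3Δ both were close to 0, with 1 insertion each. At GAL7/GAL10, leu3Δ held 6 insertions, a ratio of 0.0149 as a description, and was not above background by the rule of calling (1.42-fold, 0.489 to 3.39). The FUR4 value in leu3Δ thus stands beside low values at both galactose promoters. The GAL7/GAL10 ratio was 1.13 in hmo1Δ (0.995 to 1.27), 0.547 in sef1Δ (0.482 to 0.618) and 0.796 in yrm1Δ (0.705 to 0.897), with an interval that overlaps that of FUR4 in hmo1Δ and sef1Δ and not in yrm1Δ.

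**Figure D5:**
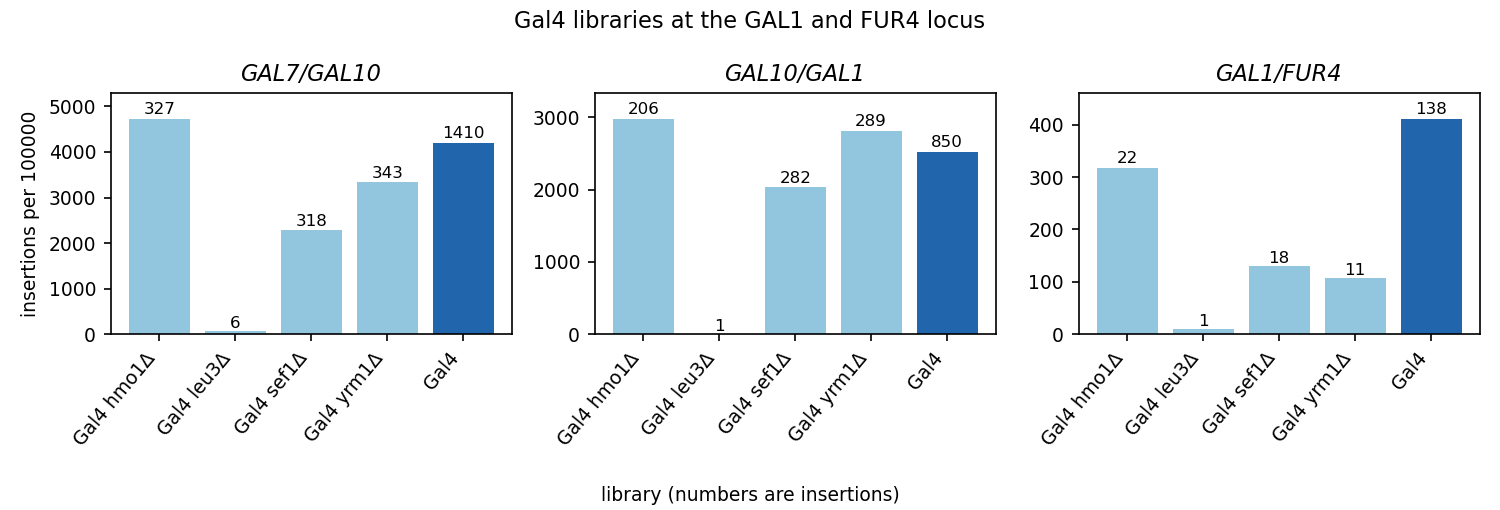
Bars give insertions per 100000 at GAL7/GAL10, GAL10/GAL1 and GAL1/FUR4 in the 4 Gal4 deletion libraries (light) and the Gal4 library (dark), each panel on its own scale from 0 and with insertions written above. At GAL1/FUR4 sef1Δ and yrm1Δ reach 130 and 107, against 410 in Gal4, while at GAL10/GAL1 they reach 2031 and 2811, against 2526 in Gal4.

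URA2 and FUI1 did not pass the test in any of the 4 deletion libraries. URA2 held 2, 4, 3 and 2 insertions in hmo1Δ, leu3Δ, sef1Δ and yrm1Δ, against 11 in Gal4, with ratios of 0.595 to 1.27. FUI1 held 1, 7, 5 and 1, against 13 in Gal4, with ratios of 0.252 to 1.88. All these ratios have intervals that include 1, so a change at either promoter was not detectable at this depth. The 5 other promoters held 0 to 2 insertions in each deletion library and 0 to 3 in Gal4.

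Other genes of pyrimidine metabolism were counted from a list of 22 made by known role, 21 of which had a promoter region. The list included URA3, URA6, URA7, URA8 and URA10 of the synthesis pathway, the regulator PPR1, the cytosine and uridine salvage genes FCY1, FCY2 and URK1, and genes of deoxynucleotide synthesis. For Urc2, 0 of 21 were called, against 1.39% of all promoter regions, so the count is near the background and is no result about these genes. They had a median fold of 0.589 and a highest of 3.06 (URK1, uridine kinase, 2 insertions). None of the list met the rule for naming, and the genes named here were chosen after their values were seen. URA10, which encodes the minor orotate phosphoribosyltransferase, held 13 Urc2 insertions (0.971-fold), URA6, the UMP kinase gene, 7 (1.43-fold), and PPR1 and FCY1 none. The URA3 promoter held 0 or 1 insertion in each library. This gene is also a plasmid marker here, and whether the strains kept its chromosomal promoter was not examined, so nothing about binding is read from these counts. In the other 11 factor libraries 2 of the list were called. They were FCY2, the purine and cytosine permease gene, for Tea1 (1 of 21, against 3.07% of all promoter regions; 61 insertions, 2.11-fold, 1.47 to 3.03) and DCD1, the dCMP deaminase gene, for Aro80 (1 of 21, against 1.79%; 26 insertions, 6.96-fold, 3.39 to 15.1).

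As the other nucleotide pathway, 18 purine genes were counted in the same way. FCY2 is in this list as well as in the list of other pyrimidine genes, so its Tea1 call appears under both. For Urc2, 0 of 18 were called, against the same 1.39% and likewise near the background, and their median fold was 0.564 and the highest 2.19. Calls elsewhere, also named after their values were seen, were ADE12, IMD2 and FCY2 for Tea1 (3 of 18, against 3.07% of all promoter regions), GUA1 for Yrr1 (1 of 18, 2.30%) and ADE3 for Gal4 (1 of 18, 2.38%), with folds of 1.77 (ADE3) to 3.93 (ADE12). The ADE3 interval of the Gal4 table has another left neighbour, PCT1, and is longer than in the other tables, where it is YCH1/ADE3.

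The mean log2 profile of the 8 promoters over the 12 factor libraries was compared with that of 754 other promoter regions with at least 50 insertions in all. The most alike were CBK1/YGP1 (Pearson r = 0.915 over 12 libraries), TDH3/PDX1 (0.755), ZRG8/EDC2 (0.753), CAF20/HEM4 (0.741) and NDT80/YHR127W (0.716). The value is a description, because the 12 libraries differ in depth and share 1 background set, Gal4 apart. Of these, CBK1/YGP1 held 277 Urc2 insertions (9.98-fold) and 59 or fewer in any other factor library. It was called in 3 of the 12 factor libraries, 2 of them other than Urc2. TDH3/PDX1 and CAF20/HEM4 were called in none and were near background for Urc2 (1.08-fold and 1.05-fold). ZRG8/EDC2 and NDT80/YHR127W are the called neighbours of PHM8 and FUR1 described above. Among the 8 genes themselves the correlation with their own mean, of which each is a part, was 0.934 for URA2, 0.916 for PHM8, 0.810 for FUI1, 0.796 for FUR1 and 0.694 for FUR4. It was 0.473 for URA1, 0.394 for URA5 and 0.08 for URH1.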

How the data were processed

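The authors deposited a table per library with, per the file headers, a count of insertions in each region between neighbouring genes, the count in a background set, the fraction each makes of all insertions, and p-values of a hypergeometric and a Poisson test, also for wider regions. Per the submitters' processing notes, Novoalign and the sacCer2 build were used, with other steps not given in the sources used here. The edges of the 8 regions equalled R64 gene ends in 16 of 16 cases. Coordinates are those of the tables other than Gal4, whose edges differ by a few bases. The background held 84109 insertions in 15 tables and 103922 in the Gal4 table.

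The genes and lists were chosen with earlier results of these data known. Promoter regions were found by gene name and strand letter. The rule for naming covered all 9 genes, list genes called for Urc2 or in 2 or more libraries (none, so the list genes named were chosen after seeing their values), genes sharing an interval, and the 5 regions most alike in profile. Library totals were recovered as count over fraction. Folds have exact conditional binomial intervals, and a count of 0 is limited by 3 insertions. Insertions came from PCR without molecular tags. The authors' hypergeometric p recomputed here differed by at most 3.26e-08. Fisher's exact test p-values were adjusted by Benjamini-Hochberg over all tested regions, with a threshold of 0.05. Calls and the Fisher step were tested on simulated data. Python 3.11.15, numpy 2.4.6, scipy 1.17.1, pandas 2.3.3 and matplotlib 3.10.9 were used. Alternatives covered the p threshold, the minimum of insertions, the p column, the wider regions, the reference, the total and the pseudocount. Motifs in promoters were planned and are not analysed here.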

Additional observations from a re-analysis of the deposited data

Results flagged for a closer look

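The FUR4 promoter differed between the Gal4 deletion libraries, tested as each of them against the other 3 pooled. In leu3Δ it held 1 insertion against 51 in the other 3, a log2 ratio of -3.41 with 0.5 insertions added. FUR4 entered that comparison only through the other 3 libraries, so the ratio is a description. In hmo1Δ it held 22 against 30, a log2 ratio of 1.85 (adjusted p = 0.000387 over 335 regions, Fisher's exact test, two-sided). In leu3Δ the galactose promoters were low too, with 6 insertions at GAL7/GAL10, against 1410 in Gal4, and 1 at GAL10/GAL1, against 850 in Gal4, and 7 of 3518 promoter regions were called. The pool set against hmo1Δ contains leu3Δ, and these values compare libraries. Depth was 6932 insertions in hmo1Δ and 9628 in leu3Δ.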

How the results depend on the processing

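The 5 Urc2 promoters were called under all 6 alternative rules of calling. The calls of URA1 for Tea1, URA5 for Lys14, FUR1 for Aro80 and FUR4 for Gal4 and hmo1Δ also held under these. With the Poisson p, or with a hypergeometric p of 0.01, Aro80 gained URA1 and Lys14 gained FUR4, and FUR4 was called in yrm1Δ at 0.01. At a p of 0.0001, FUR4 was not called in sef1Δ, which left 1 of 2 calls in the deletion libraries, and 3 purine calls remained in the other 11 factor libraries in place of 5, with ADE3 and GUA1 lost. Against the other 3 deletion libraries in place of Gal4, the log2 ratio of FUR4 turned to 1.85 in hmo1Δ, where 1 of the 8 promoters was then higher, and to 0.052 in sef1Δ, and was -0.29 in yrm1Δ (adjusted p = 0.867, Fisher's exact test). The number of lower promoters was then 0 in sef1Δ and 0 in yrm1Δ, where 1 had been lower against Gal4. The cause was not tested. Scaling to the median ratio, a minimum of 5 insertions and the wider regions (added after seeing the data) changed no FUR4 call. With the pooled other factor libraries as reference, 42 of 128 folds left their interval, and under the other 3 settings of the fold 128 of 128 stayed inside. No paired analysis was possible because each group has 1 library. The motif search could not be run. Depth limits the deletion libraries most: 1 insertion in hmo1Δ is worth 14.4 per 100000, and URH1, URA5 and PHM8 held 0 or 1 there and in the other 3.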

Other observations

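URA4, which encodes dihydroorotase, entered through its 3′ side alone. The URA4/RPN13 interval of 211 bp held 1 insertion in Yrr1 and 0 in each of the other 15 libraries, with 1 background insertion in the Gal4 table and none in the others. Over all 16 libraries the 3′ regions of the 9 genes held 0 to 5 insertions per library, and none was called.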
